A study of Mus musculus with 12 samples.

Results

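The 8 genes described here encode channels and adhesion molecules of the node of Ranvier: the sodium channel subunits Scn1a and Scn8a, the potassium channel subunits Kcna1, Kcna2 and Kcnq3, and the adhesion molecules Cntnap1, Cntn1 and Nfasc. They were taken by symbol from a table of 24060 genes, in which all 8 were present, and all 8 passed the filter on low counts that left 14354 genes for testing. The RNA came from dissected brain white matter of male Tie2-Cre:Rpl22-HA mice (Tie2-Cre:RiboTag), in which Cre recombinase driven by the Tie2 promoter switches on a hemagglutinin-tagged ribosomal protein. Tie2-Cre is active in endothelial cells and also in blood-derived cells, so the tag marks ribosomes of these lineages. All mice carried both alleles, and by their labels the groups differed in diet and in the RNA fraction taken.

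In the control-fat diet (CFD) groups, 3 mice (animals 489, 555 and 556) received 10% of kcal from fat, and in the high-fat diet (HFD) groups, 3 mice (animals 516, 517 and 676) received 60%. From each mouse, RNA bound to ribosomes pulled down with an anti-HA antibody (IP) and RNA of the whole tissue lysate (input) were sequenced, giving 12 libraries in 4 groups of 3. The parent strains are listed on a B6 background, and the sources used here describe the timing of the diet for a Tie2-Cre reporter strain but not for these 6 animals. Each animal is 1 biological replicate. The main fit did not pair the libraries of 1 mouse, so its p-values measure the spread between libraries within groups. Fits with the animal as a block and the permutation tests on ratios within each animal keep the pairing.

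The node of Ranvier is a short gap between myelin segments where clustered sodium channels regenerate the action potential. Beside it, at the paranode, the axonal molecules Cntnap1 and Cntn1 bind a neurofascin isoform on the myelin loops, and beyond this junction, under the compact myelin, sit the Kcna1 and Kcna2 potassium channels. Most of these genes are transcribed in neurons, whose cell bodies lie largely outside white matter, while Nfasc is made by both neurons and oligodendrocytes as different isoforms. The counts are per gene, so the isoforms of Nfasc were not separated.

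The libraries held between 19567186 and 33660708 counts, of which the 8 genes took 0.182% to 0.370%. A single ribosomal RNA transcript, Rn45s, took 38.7% to 42.3% of counts in CFD IP, 17.1% to 19.1% in HFD IP, 8.60% to 14.2% in CFD input and 6.34% to 9.29% in HFD input. Levels are therefore given as CPM (counts scaled to a common library size, with trimmed-mean or TMM factors), and leaving Rn45s and Lars2 out before scaling changed no call among the 8 genes. The female-specific RNA Xist was counted 133 times in input RNA of animal 676 (HFD) and 7 times in that of animal 516 (HFD), although the study's methods describe all mice as male. In each of the remaining libraries Xist had at most 1 count, and results that turn on animal 676 are given with and without it.

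The IP libraries were checked against the markers of the cells the tag should mark. Summed over 10 endothelial markers, the level was 5.32 to 208 CPM in CFD IP, 13.4 to 68.4 CPM in HFD IP, 10.6 to 22.1 CPM in CFD input and 17.0 to 37.9 CPM in HFD input. Cldn5, the tight junction protein of brain endothelium, and the endothelial receptor Tie1 each had 0 counts in 4 of the 6 IP libraries. Ly6c1 was at 0 in 2 of 6. Pecam1, Flt1, Slco1a4, Kdr and Esam each had 0 counts in 1 of 6, while Egfl7 and Itm2a were counted in all 6, with 1 to 3650 and 1 to 212 counts. The 3650 counts of Egfl7 were in the CFD IP of animal 556, the library with the sum of 208 CPM. Zeros occurred in input too. Cldn5 had 0, 0 and 0 counts in CFD input and 50, 22 and 30 in HFD input. Tie1 had 0, 2 and 49 in CFD input and 0, 8 and 0 in HFD input. Summed over 9 neuronal markers, the level was 5476 to 9201 CPM in CFD IP and 8814 to 10539 CPM in HFD IP, and over 8 oligodendrocyte markers it was 4828 to 6308 CPM in CFD IP and 2875 to 7087 CPM in HFD IP. In input the neuronal sums were 8236 to 12854 CPM in CFD and 7637 to 10479 CPM in HFD. The oligodendrocyte sums in input were lower, at 3923 to 4948 CPM in CFD and 2937 to 4454 CPM in HFD. In every input library Rbfox3, Gad1 and Slc17a7, of the neuronal list, had at least 4857, 2438 and 5184 counts. How many neuronal cell bodies the dissected tissue held was not tested. Over all 12 libraries, 6 astrocyte markers summed to 583 to 908 CPM, 7 microglial markers to 61.6 to 257 CPM, 5 markers of oligodendrocyte progenitors to 40.7 to 141 CPM and 5 pericyte markers to 2.27 to 36.3 CPM. The level of a neuronal or glial gene in IP is described here without assigning it to the tagged cells, and a change in the number of cells of a type cannot be told apart from a change in RNA per cell.

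**Figure D1:**
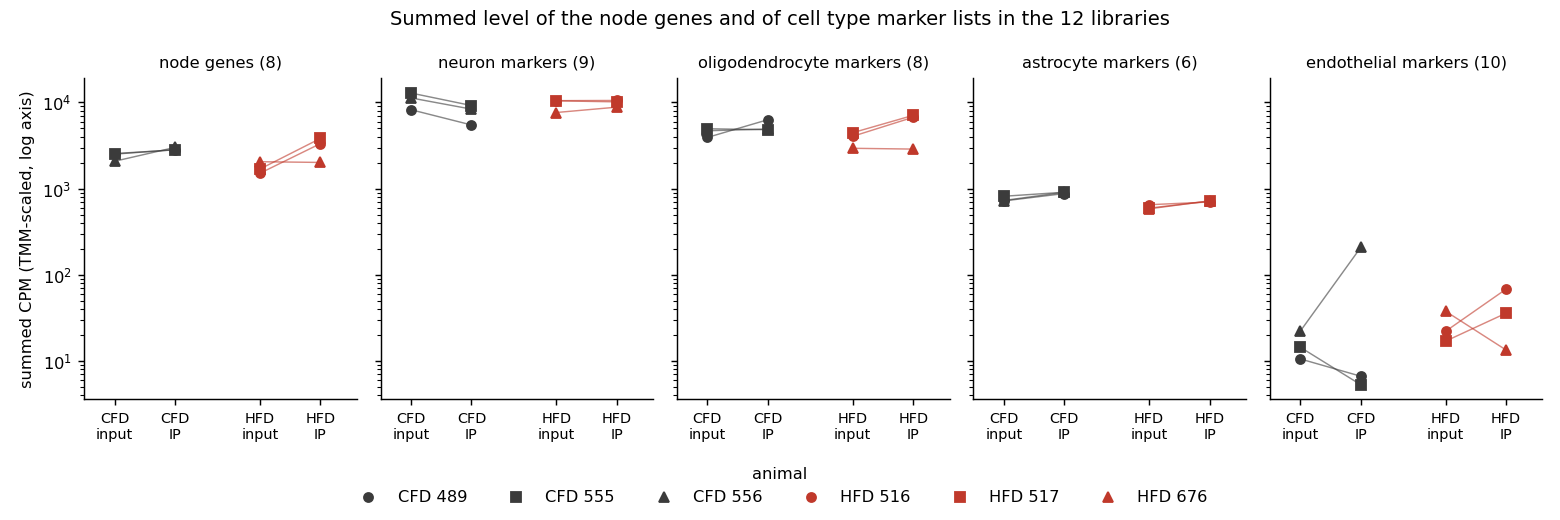
Summed CPM (log axis) of the 8 node genes and of 4 cell type marker lists in the 12 libraries. Points are libraries, lines join input and IP of 1 animal, and colour marks diet (dark, CFD; red, HFD). Endothelial markers lie between 5.32 and 208 CPM, below every other list plotted, in IP as in input.

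Scn8a encodes the pore-forming sodium channel subunit that predominates at mature nodes. It lies on chromosome 15, from 100869863 to 101045938 in the GRCm38.p6 assembly, the same genome build as mm10. Scn1a encodes a related subunit, found mainly at the axon initial segments and nodes of inhibitory neurons, and lies on chromosome 2 from 66270781 to 66440837. Because the sodium channel genes are close paralogues, the windows of 69 bases (the length of a read) that a member's annotated transcripts share with any other gene were counted. Of 11407 such windows in Scn1a, 266 (2.33%) were shared with other genes, so a single read from these stretches does not identify Scn1a. The reads were paired, and whether any Scn1a counts were affected was not tested. Scn8a shared none of its 16120 windows, and its longest match to another gene, Scn3a, was 55 bases.

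Among the other genes, Cntnap1 shared 166 of 5806 windows (2.86%), with a longest run of 234 bases in common with Plekhh3 on the opposite strand. Whether the counting used strand is not given in the sources used here, so Cntnap1 counts may hold some reads of that neighbour. Kcna2 shared 10 windows and Cntn1 shared 1, while Kcna1, Kcnq3 and Nfasc shared 0.

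The potassium channel genes lie on chromosome 6 from 126636463 to 126645801 (Kcna1), on chromosome 3 from 107090883 to 107115005 (Kcna2) and on chromosome 15 from 65986374 to 66286636 (Kcnq3). The adhesion genes lie on chromosome 11 from 101174617 to 101190724 (Cntnap1), on chromosome 15 from 92051152 to 92341967 (Cntn1) and on chromosome 1 from 132564690 to 132741848 (Nfasc).

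All 8 genes were measured with at least 1096 counts in every library. The lowest count was that of Kcnq3 in the HFD input of animal 517, and the highest, 37583, was that of Scn8a in the HFD IP of the same animal. To compare levels between genes, CPM was divided by the gene length in kilobases recovered from the deposited values, which ranged from 2878 bases for Kcnq3 to 11582 bases for Kcna2. Averaged over the 12 libraries, Cntn1 stood at 60.1 and Scn8a at 59.7 CPM per kilobase, above 95.1% and 95.0% of the genes tested. Nfasc stood at 39.8, Kcna1 at 37.4, Kcna2 at 34.8, Kcnq3 at 32.0 and Cntnap1 at 26.7 CPM per kilobase. Scn1a was lowest at 17.3 CPM per kilobase, above 77.6% of the genes tested.

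Scn1a was last of the 8 in each of the 4 groups on the per-kilobase scale. Cntn1 led Scn8a in both input groups, at 67.4 ± 12.1 against 49.3 ± 8.44 CPM per kilobase in CFD input (SD, n = 3) and 49.6 ± 7.74 against 32.7 ± 14.5 in HFD input. Scn8a led Cntn1 in both IP groups, at 76.0 ± 5.30 against 62.0 ± 17.8 CPM per kilobase in CFD IP and 80.9 ± 29.8 against 61.2 ± 8.82 in HFD IP. In all 4 groups the ranges of these leading genes overlapped. Within single libraries the order turned in animal 555 in CFD input, animal 556 in CFD IP and animal 676 in HFD IP. In HFD input Cntn1 lay above Scn8a in animals 516 (42.2 against 18.9), 517 (57.6 against 31.6) and 676 (48.9 against 47.8). Of the 28 pairs of neighbours in the 4 orders, only Kcna2 and Scn1a in CFD IP had ranges that did not overlap.

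Compared with all genes tested, the 8 varied little between animals of 1 group. Their SD of log2 CPM within groups ran from 0.29 for Cntn1 to 0.60 for Cntnap1, with a median of 0.46, where the median over all genes tested was 1.24. Between 80.2% and 98.0% of the genes tested had a larger SD than the respective member. Only 13.8% of the genes tested were at least as abundant as the lowest of the 8. No comparison with genes of like abundance was made, so the part of abundance in this spread was not tested.

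**Figure D2:**
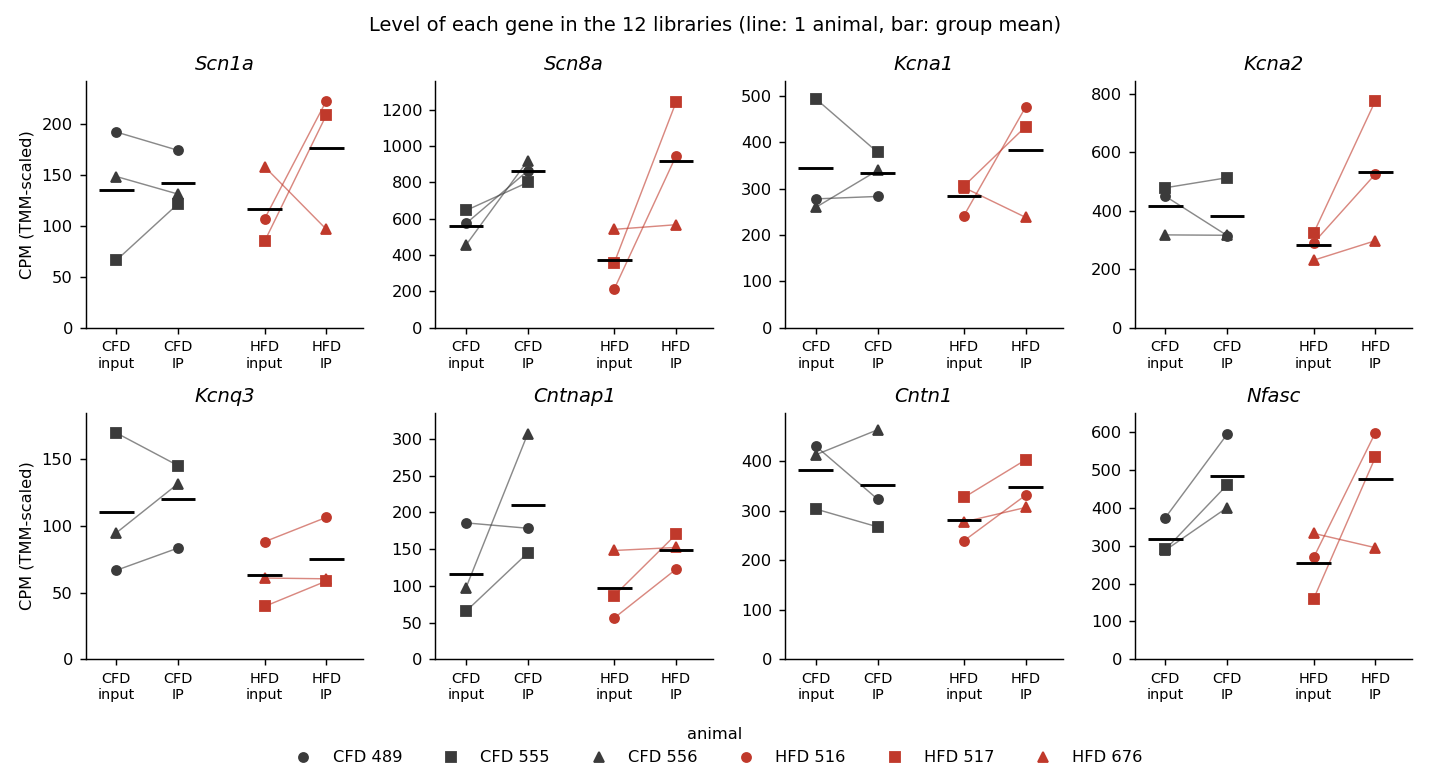
CPM of each gene in the 12 libraries. Points are libraries, lines join input and IP of 1 animal, bars are group means (n = 3), and colour marks diet. Scn8a is higher in IP than in input in every animal, while lines of Kcna1, Kcna2, Kcnq3 and Cntn1 run in both directions.

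The comparison of IP with input asked which RNAs the ribosome pulldown held in excess of whole white matter. Over both diets, Scn8a was 1.95-fold higher in IP, and no other of the 8 genes passed the threshold of adjusted p under 0.1. All 8 had a fitted log2 fold change above 0, with a median of 0.37, against a median of -0.03 and 48.4% of genes above 0 among all genes tested. Of the genes tested, 2.35% were called in this comparison and 1.93% were called higher in IP, against 1 of the 8. Among abundant genes the share was higher. Of the 1980 genes at least as abundant as the lowest of the 8, 10.3% were called higher, 69.9% had a log2 fold change above 0 and the median was 0.26. The genes called higher were also long, with a median length of 4859 bases against 2872 for all genes tested, and the median of the 8 was 8628 bases. The part of abundance and length in the result was not tested.

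Scn8a stood at 574, 646 and 456 CPM in the CFD input of animals 489, 555 and 556, and at 864, 800 and 920 CPM in their IP. In the HFD animals 516, 517 and 676 it stood at 214, 358 and 542 CPM in input and at 945, 1241 and 567 CPM in IP. IP was above input in 6 of 6 animals, and within each diet the IP and input ranges did not overlap. Ranges of 3 against 3 libraries did not overlap for 15.2% of the genes tested in CFD and for 14.1% in HFD. The log2 ratio of IP to input ran from 0.07 in animal 676 to 2.14 in animal 516, with a mean of 0.99 ± 0.83 (SD, n = 6). The exact permutation test over sign changes gave p = 0.03125 (two-sided), the smallest value that 6 pairs allow. It was 1 of 8 such tests, which are given unadjusted, and 4.09% of the genes tested were likewise above 0 in 6 of 6 animals.

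The fitted log2 fold change of Scn8a was 0.97 ± 0.23 (SE), with an adjusted p of 0.0502 by edgeR's quasi-likelihood test. With the animal as a block, it was 0.995 with an edgeR adjusted p of 0.00742. Scn8a was no longer called without animal 489 (edgeR adjusted p = 0.118), 516 (0.298), 517 (0.264) or 556 (0.205), whose removal also left fewer libraries. It was called without animal 555 (edgeR adjusted p = 0.0924) and without animal 676 (0.00482), and the log2 fold change stayed between 0.81 and 1.28 over these 6 fits.

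Nfasc, which anchors sodium channels at the node and holds myelin to the axon at the paranode, came next. It stood at 375, 290 and 288 CPM in CFD input and at 595, 461 and 401 CPM in CFD IP of animals 489, 555 and 556. In HFD animals 516, 517 and 676 it stood at 269, 160 and 333 CPM in input and at 599, 534 and 295 CPM in IP. The CFD ranges of IP and input did not overlap, while in HFD animal 676 had less Nfasc in IP than in input. The log2 ratio of IP to input was above 0 in 5 of 6 animals, with a mean of 0.76 ± 0.65 (SD, n = 6, exact permutation p = 0.0625, two-sided).

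Nfasc fell short of the threshold in the edgeR fit, at 0.76 ± 0.23 (SE) on the log2 scale with adjusted p = 0.117. With the animal as a block the edgeR adjusted p was 0.0614, and without animal 676 it was 0.0344, so that both of these fits called Nfasc. It was also called by DESeq2 (adjusted p = 0.0480) and by edgeR with no filter on low counts (adjusted p = 0.0464). The remaining leave-one-out fits gave edgeR adjusted p-values of 0.231 to 0.465.

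Cntnap1, the axonal partner in the paranodal junction, had the widest spread within groups. It stood at 186, 65.5 and 97.6 CPM in CFD input and at 178, 145 and 307 CPM in CFD IP of animals 489, 555 and 556. In HFD animals 516, 517 and 676 it stood at 56.3, 86.8 and 148 CPM in input and at 123, 170 and 152 CPM in IP. The IP ranges overlapped the input ranges in both diets, and IP was above input in 5 of 6 animals. The mean log2 ratio was 0.81 ± 0.68 (SD, n = 6, exact permutation p = 0.09375, two-sided), and the fitted log2 fold change of 0.73 ± 0.30 (SE) had an edgeR adjusted p of 0.269.

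The other 5 genes lay nearer to 0. Kcna2 and Kcna1, which form the juxtaparanodal potassium channels, had fitted log2 fold changes of 0.40 ± 0.24 and 0.20 ± 0.23 (SE), and Kcnq3, a subunit of the slow potassium channel that shares the node with sodium channels, had 0.19 ± 0.31. Scn1a had 0.33 ± 0.29 and Cntn1, the paranodal partner of Cntnap1, had 0.09 ± 0.21 (SE). Their edgeR adjusted p-values ran from 0.485 to 0.900. The IP to input ratio was above 0 in 3 of 6 animals for Scn1a and in 4 of 6 for Kcna1, Kcna2, Kcnq3 and Cntn1, with exact permutation p-values of 0.125 to 0.5312.

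**Figure D3:**
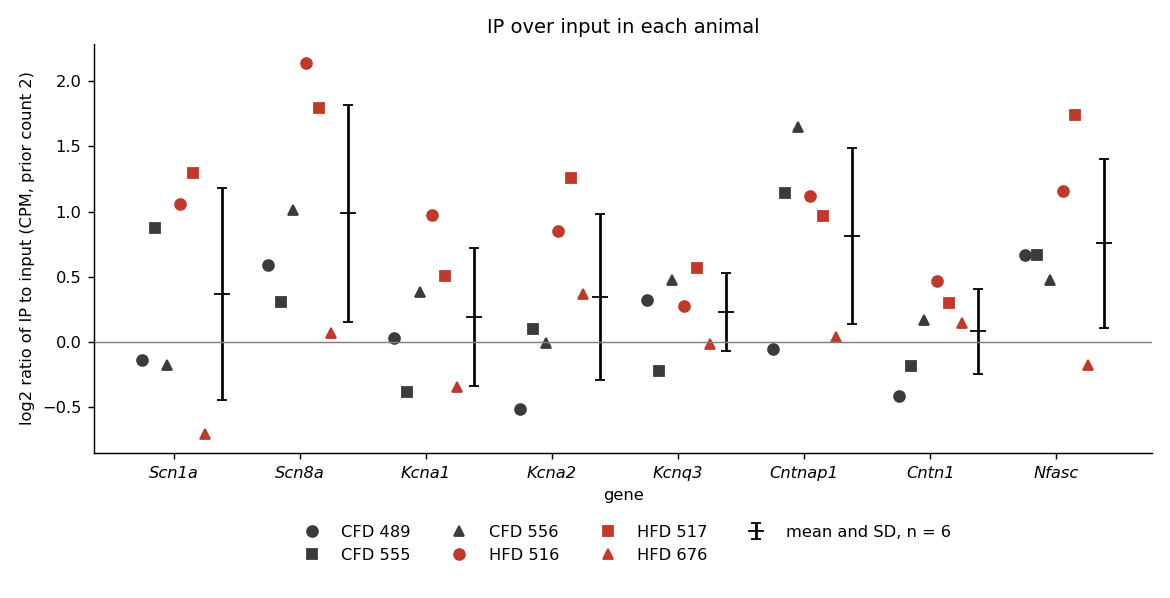
Log2 ratio of IP to input CPM (prior count 2) for each gene in each of the 6 animals, with the mean and SD at the right of each gene. Animals 516 and 517 lie above 0 for all 8 genes, and animals 489 and 676 for 4 of 8.

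The animals differed in how many of the 8 genes were higher in IP. All 8 were above 0 in animals 516 and 517, with median log2 ratios of 1.02 and 1.11, where the median over all genes tested was -0.25 and -0.09. In animal 556, 6 of 8 were above 0 (median 0.43), in animal 555, 5 of 8 (median 0.20), in animal 489, 4 of 8 (median -0.02) and in animal 676, 4 of 8 (median 0.01). Summed over the 8 genes, the level went from 1506 to 3329 CPM in animal 516 and from 1685 to 3826 CPM in animal 517, but from 2053 to 2014 CPM in animal 676. The log2 IP to input ratios of the summed oligodendrocyte markers in animals 516, 517 and 676 were 0.74, 0.67 and -0.03, and those of the summed neuronal markers were 0.01, -0.04 and 0.21. In the CFD animals 489, 555 and 556 the oligodendrocyte ratios were 0.69, -0.04 and 0.07 and the neuronal ratios -0.59, -0.48 and -0.43. The part of the cell makeup of each lysate and pulldown in these ratios was not tested.

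Within CFD, none of the 8 genes was called higher or lower in IP, where 0.188% of the genes tested were called. The fitted log2 fold changes ran from -0.12 for Kcna2 and Cntn1 to 0.85 ± 0.43 (SE) for Cntnap1, with 5 of 8 above 0 and a median of 0.10 (all genes, -0.01). The Cntnap1 value was 0.36 without animal 556, below Nfasc (0.66) and Scn8a (0.44), and 1.46 without animal 489. Scn8a had 0.62 ± 0.32 and Nfasc 0.61 ± 0.33 (SE), with edgeR adjusted p-values of 0.447 and 0.458. Scn8a and Nfasc were the 2 of 8 whose IP and input ranges did not overlap, as was the case for 15.2% of all genes tested. With the animal as a block the number of all genes called went from 27 to 139, and again none of the 8 was among them.

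Within HFD, none of the 8 passed either, and 0.0139% of the genes tested were called. All 8 log2 fold changes were above 0, from 0.26 for Kcnq3 to 1.31 for Scn8a, with a median of 0.60 (all genes, -0.01, 49.4% above 0). Scn8a had 1.31 ± 0.33 (SE, edgeR adjusted p = 0.478), Kcna2 had 0.92 ± 0.34 and Nfasc 0.91 ± 0.33 (both edgeR adjusted p = 0.623). Scn8a was the 1 of 8 with ranges that did not overlap, against 14.1% of all genes tested. With the animal as a block, which called 24 genes in place of 2, Scn8a was called (edgeR adjusted p = 0.0647). Without animal 676, a fit that called 35 of all genes, Scn8a was also called, with a log2 fold change of 1.93 (edgeR adjusted p = 0.0267). DESeq2 called 160 of all genes, among them Scn8a (adjusted p = 0.0237), Nfasc (0.0974) and Kcna2 (0.0981).

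Kcna2 had the interaction value furthest from 0 in the fit of all 12 libraries. It stood at 449, 478 and 317 CPM in CFD input and at 315, 513 and 316 CPM in CFD IP of animals 489, 555 and 556. In HFD animals 516, 517 and 676 it stood at 290, 324 and 231 CPM in input and at 525, 775 and 297 CPM in IP. The HFD ranges of IP and input overlapped through animal 676. The interaction term, which measures how far the IP to input difference in HFD departs from that in CFD, was 1.04 ± 0.47 (SE) on the log2 scale for Kcna2, with an edgeR adjusted p of 0.896. Without animal 676 it was 1.21 and that of Scn8a was 1.31, and without animal 489 it was 0.85 and that of Cntnap1 was -0.86, so the order turned on single animals. Across the 8 genes the interaction ran from -0.24 for Cntnap1 to 1.04, with 7 of 8 above 0 and a median of 0.45 (all genes, 0.06). None was called, and 0% of the genes tested were called, while 770 genes had an unadjusted p under 0.05, as did Kcna2 alone of the 8. DESeq2 called 121 genes by this term and none of the 8.

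The comparison of HFD IP with CFD IP asked how diet changed the RNA in the pulldown. None of the 8 genes was called, against 0.0557% of the genes tested. Kcna2 had the highest fitted log2 fold change, 0.48 ± 0.33 (SE), and Kcnq3 the lowest, -0.68 ± 0.45, with edgeR adjusted p-values of 0.594 and 0.570. Cntnap1 had -0.50 ± 0.43 (SE), Scn1a 0.31 ± 0.41 and Kcna1 0.20 ± 0.32. Scn8a (0.09), Cntn1 (-0.02) and Nfasc (-0.03) lay near 0. Of the 8, 4 were above 0, the median was 0.04 (all genes, 0.03), and 0 of 8 had ranges that did not overlap, where 10.6% of all genes did. With the animal as a random block, limma called 5 genes in place of 8, none of them among the 8. Without animal 676, Kcna2 had 0.77 with an unadjusted edgeR p of 0.0267 (adjusted p = 0.391).

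Kcnq3 showed the levels behind the lowest value. It stood at 83.5, 145 and 132 CPM in CFD IP and at 106, 58.7 and 60.4 CPM in HFD IP. Animal 489 on CFD lay below animal 516 on HFD, so the groups overlapped. In input Kcnq3 stood at 66.8, 170 and 94.9 CPM in CFD and at 88.2, 39.7 and 61.0 CPM in HFD, again with overlap.

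In whole white matter, all 8 genes had a log2 fold change below 0 in HFD against CFD, and none was called. The values ran from -0.22 ± 0.41 (SE) for Scn1a to -0.81 ± 0.45 for Kcnq3, with a median of -0.38 (all genes, -0.0040). Each of the 8 had an edgeR adjusted p of 0.99997, and 0% of the genes tested were called, with 292 genes (2.03%) at an unadjusted p under 0.05 and none of the 8 among them. DESeq2 called 31 genes in this comparison and none of the 8. Without animal 676, Scn8a had -0.97 with an unadjusted edgeR p of 0.00436 and was not called. The sign was not stable for 3 of the 8: without animal 489, Scn1a became 0.10 and Cntnap1 0.23, without animal 516, Cntnap1 became 0.0091, and without animal 555, Kcna1 became 0.084. Ranges of the 2 input groups overlapped for all 8, where 10.4% of all genes had ranges that did not. Summed over the 8, CFD input held 2551, 2513 and 2076 CPM and HFD input held 1506, 1685 and 2053 CPM. The median marker sum in input was lower in HFD than CFD for neurons (10434 against 11278 CPM) and oligodendrocytes (4043 against 4690 CPM). It was also lower for astrocytes (595 against 728 CPM) and oligodendrocyte progenitors (79.52 against 91.47 CPM). Endothelial (22.13 against 14.49 CPM), microglial (115.2 against 88.96 CPM) and pericyte sums (35.79 against 19.99 CPM) had higher medians in HFD. The ranges overlapped for every list except astrocytes (583 to 651 against 720 to 816 CPM). The part of cell makeup in the values of the 8 genes was not tested. The HFD IP and HFD input comparisons with CFD use the same 6 animals, and the IP to input comparison and the diet comparison in input share the input libraries.

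**Figure D4:**
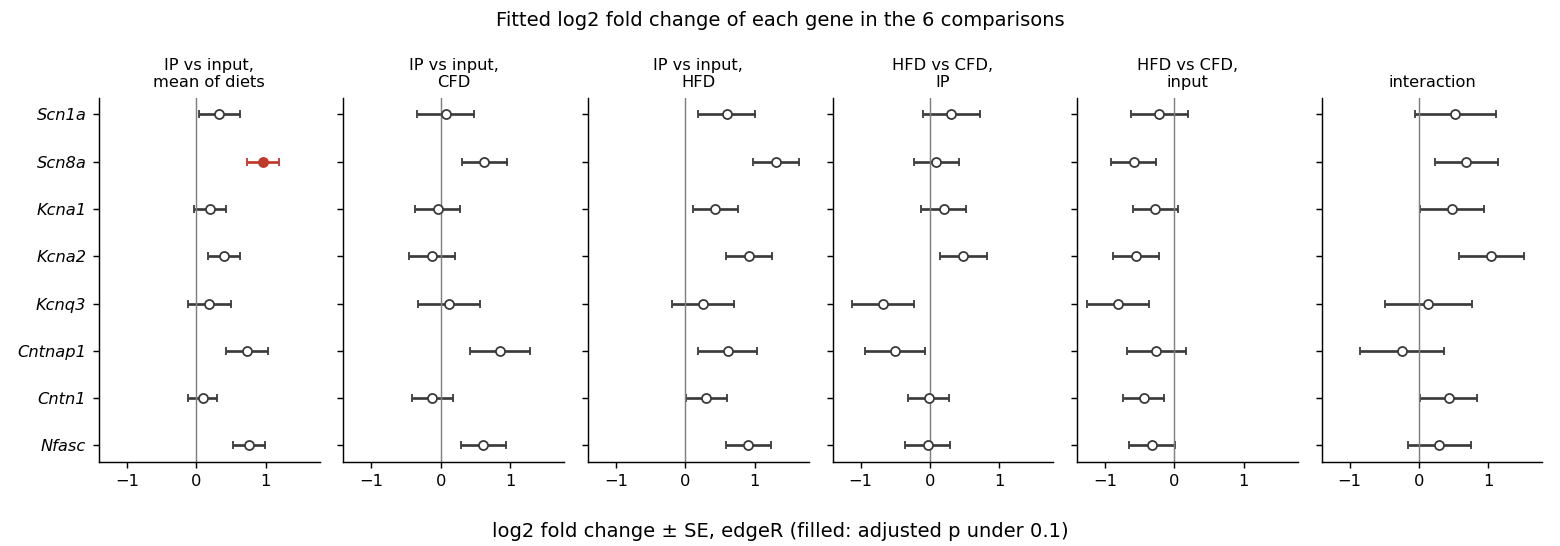
Fitted log2 fold change with its SE for each gene in the 6 comparisons (edgeR, all 12 libraries). The 1 filled point, Scn8a in IP against input over both diets (0.97), is the single call among the 8 genes.

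Genes that work as partners were compared with each other per kilobase within each library, which removes library scaling. The Scn8a to Scn1a ratio was 3.84 ± 2.82 in CFD input, 4.51 ± 0.79 in CFD IP, 2.34 ± 0.82 in HFD input and 3.90 ± 0.70 in HFD IP (SD, n = 3). It was higher in IP in 5 of 6 animals (mean log2 difference 0.62 ± 0.63 SD, exact permutation p = 0.09375). The Kcna2 to Kcna1 ratio stayed between 0.59 and 1.38 in all 12 libraries and was higher in IP in 3 of 6 animals (mean log2 difference 0.15 ± 0.57 SD, exact permutation p = 0.5312).

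The Cntn1 to Cntnap1 ratio was 3.52 ± 1.17 in CFD input, 1.63 ± 0.18 in CFD IP, 3.12 ± 1.19 in HFD input and 2.23 ± 0.33 in HFD IP (SD, n = 3). In 5 of 6 animals it was lower in IP than in input (mean log2 difference -0.73 ± 0.60 SD, exact permutation p = 0.0625). The IP and input ranges of the ratio did not overlap in CFD but overlapped in HFD (1.90 to 2.56 in IP, 1.77 to 4.02 in input). Of single genes tested, 15.2% had ranges that did not overlap in CFD, and the share among ratios was not counted. The Scn8a to Nfasc ratio was higher in IP in 4 of 6 animals (mean log2 difference 0.23 ± 0.48 SD, exact permutation p = 0.3438). None of the 4 ratios passed 0.05 before adjustment, so none can pass after it.

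Profiles over the 12 libraries were also compared between genes, by the SD of the difference between their log2 CPM, where a smaller value means a closer shape. Among the 8, Kcna1 and Kcna2 were the closest pair (0.34), followed by Scn1a and Nfasc (0.40) and Scn8a and Nfasc (0.43). Measured against the mean profile of the other 7, each member lay between 0.33 (Nfasc) and 0.66 (Kcnq3), with a median of 0.43. Measured against the mean of all 8, the median over other genes tested, not matched for abundance, was 1.41. The nearest genes outside the 8, against that same mean, were Map1b (0.16), Kif1b (0.16), Gabbr1 (0.18), Rtn3 (0.21) and Faim2 (0.21). Map1b encodes a microtubule-associated protein of axons, Kif1b a kinesin motor and Gabbr1 a subunit of the metabotropic GABA receptor. The 12 libraries come from 6 animals and share scaling, so these values are descriptions.

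Other genes of the node and its flanks were taken from 5 lists of 38 symbols, of which 36 were in the table and tested. These lists were chosen with earlier results of these data known, so the counts below are descriptions. In IP against input over both diets, 7 of the 36 were called higher and 0 lower, 28 had a log2 fold change above 0, and the median was 0.30. Of all genes tested, 1.93% were called higher, and of the genes at least as abundant as the lowest of the 8, 10.3% were called higher, 69.9% had a log2 fold change above 0 and the median was 0.26. Among the cytoskeletal anchors, Ank3, the ankyrin that clusters nodal sodium channels, had a log2 fold change of 0.87 ± 0.23 (SE, edgeR adjusted p = 0.0790). Ank2, the paranodal ankyrin of the axon, had 1.13 ± 0.23 (0.0241) and the beta spectrin Sptbn1 had 0.84 ± 0.23 (0.0836). Ank3 averaged 689 CPM in CFD input and 1211 CPM in CFD IP, and 632 CPM in HFD input and 1208 CPM in HFD IP.

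Among sodium channel partners, Scn2b, an auxiliary beta subunit, rose by a log2 fold change of 1.10 ± 0.24 (SE, edgeR adjusted p = 0.0344), while Fgf12, a cytoplasmic channel regulator, had -0.87 ± 0.30 (0.177) and the alpha subunit Scn3a had 1.10 ± 0.41 (0.217). Among potassium channel genes, Kcna6 rose by 1.66 ± 0.36 (0.0368) and Kcnab2, the cytoplasmic beta subunit of Kcna channels, by 0.84 ± 0.21 (0.0633), and Kcna4 had 1.09 ± 0.49 (0.325). None of the 6 adhesion genes was called. Cntn2, the juxtaparanodal contactin, had 0.76 ± 0.30 (0.243), Nrcam 0.40 ± 0.22 (0.434) and Gldn 2.99 ± 1.36 (0.326). Of the matrix genes, Ncan was called at 0.93 ± 0.22 (0.0509), with Tnr at 0.38 ± 0.30 (0.626) and Hapln1 at -0.81 ± 0.66 (0.645). All adjusted p-values in these lists are edgeR's, over all genes tested. In each of the other 5 comparisons, 0 of the 36 were called.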

How the data were processed

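Counts from 12 libraries (19567186 to 33660708 each) were analysed. The authors aligned paired-end reads of 69 bases to mm10 with STAR, and the submitters' processing notes also name HTSeq. The kit used for the libraries is given differently in the labels (Nugen Ovation) and in the methods (TruSeq with Ribo-Zero). The deposited counts are whole reads per gene, not normalized, and whether strand was used is not given in the sources used here. The deposited FPKM values served only to recover gene lengths, and the deposited normalized signal was not used. The log2 fold changes and p-values of the authors' own comparisons, also in the table, were not used.

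Groups and animal numbers came from the labels. Genes passing edgeR's filterByExpr (minimum count 10, minimum total 15; 14354 of 24060) were TMM-scaled and tested with edgeR 4.0.16 (R 4.3.3) by quasi-likelihood on 4 group means over all 12 libraries, with Benjamini-Hochberg adjustment over all genes tested and a threshold of 0.1. The common biological coefficient of variation was 101.3%. Per-animal log2 IP to input ratios (prior count 2) were tested by exact permutation of signs. A small adjusted p in the main fit shows a difference beyond the spread between libraries within groups. A large one does not show that groups are alike. Ratios and folds were computed from scaled counts.

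IP and input carrying the same number came from the same mouse, so the animal pairs the libraries. Over all genes tested, the correlation of the deviations of a mouse's IP and input from their group means was 0.00641 to 0.19, with a median of -0.00984 between different mice.

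Named genes were the 8 members, the genes called from the 5 node lists with up to 3 more per list by smallest p in IP against input, and the 5 nearest profiles. The members and lists were chosen with earlier results of these data known. Gene positions are RefSeq's (GRCm38.p6), and transcripts for the shared windows are GENCODE's (GRCm38). The procedure was tested on simulated data. Alternatives were edgeR's likelihood ratio test, DESeq2 1.42.0, RLE size factors, all genes with a count, Rn45s and Lars2 left out, a threshold of 0.05, each animal left out, only the 6 libraries compared, and the animal as a block (limma 3.58.1 voom for diet). A sequence is not reported here.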

Additional observations from a re-analysis of the deposited data

How the results depend on the processing

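Of 728 alternative values for the 8 genes, 691 kept their direction and their side of the threshold or, for the per-animal ratios, moved by less than 1 SD. All 72 values of the per-animal ratios are among the 691. Leaving out 1 of 6 animals cannot move the mean ratio by 1 SD, so those outcomes were fixed in advance. The threshold of 0.05 uses the same fit, so its directions were fixed as well. The numbers of all genes called moved more. Over both diets, IP against input called 337 genes, and 730 with no filter, 779 by the likelihood ratio test, 996 by DESeq2 and 106 at an adjusted p under 0.05 (7 to 430 leaving out each animal). In CFD it called 27, and 312, 277, 816 and 3 under the same alternatives in that order, and 14 with only the 6 libraries compared (2 to 52). In HFD it called 2, and 79 with no filter, 4 by the likelihood ratio test, 160 by DESeq2, 0 without Rn45s and Lars2 and 0 with only 6 libraries (0 to 35). HFD IP against CFD IP called 8, and 219 with no filter, 227 by the likelihood ratio test, 770 by DESeq2, 5 without Rn45s and Lars2, 2 at an adjusted p under 0.05 and 3 with only 6 libraries (1 to 20). HFD input against CFD input called 0, and 3 with no filter and 31 by DESeq2 (0 to 1). The interaction called 0, and 44 with no filter, 37 by the likelihood ratio test and 121 by DESeq2 (0 to 1). With the animal as a replicate block, IP against input called 451 genes over both diets, 139 in CFD and 24 in HFD, and HFD IP against CFD IP called 5 by limma (consensus correlation 0.0641). Apart from Nfasc over both diets and Scn8a in HFD, the block changed no call among the 8.

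Signs turned only for values that were not called. With the replicate block, Kcna1 in CFD became 0.0099 and Cntn1 in HFD IP against CFD IP became 0.020. Leaving out each animal, the log2 fold change in IP against input over both diets ran from -0.0066 to 0.16 for Cntn1. In CFD it ran from -0.15 to 0.23 for Scn1a, -0.23 to 0.22 for Kcna1, -0.27 to 0.053 for Kcna2, -0.054 to 0.43 for Kcnq3 and -0.32 to 0.022 for Cntn1. In HFD IP against CFD IP it ran from -0.19 to 0.34 for Scn8a, -0.012 to 0.45 for Kcna1, -0.18 to 0.24 for Cntn1 and -0.25 to 0.22 for Nfasc. In input between diets it ran from -0.54 to 0.10 for Scn1a, -0.45 to 0.084 for Kcna1 and -0.70 to 0.23 for Cntnap1. In the interaction it ran from -0.17 to 0.32 for Kcnq3, -0.86 to 0.25 for Cntnap1 and -0.042 to 0.79 for Nfasc. The cause of these movements was not tested. Each of the 8 had at least 1096 counts in every library, and each group held 3 libraries.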
